A study of Mus musculus with 27 samples.

Results

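The genes described are 9 chemokine genes of the mouse, Ccl2, Ccl5, Ccl7, Cxcl1, Cxcl5, Cxcl10, Cxcl12, Cxcl13 and Cx3cl1. The list was made with earlier results of these data known. Each probe set whose platform gene symbol was on that list was taken. That gave 1 probe set for each of the 9 genes among 19938 genes tested. All arrays hold RNA of 3T3-L1 cells, a mouse embryo fibroblast line that becomes fat cells in a hormone mixture. The cells carried the pMIG vector, a retroviral expression plasmid, either as such or with Flag-ISL1, an epitope-tagged LIM homeodomain transcription factor. The mixture, given 2 days after confluence, held 10% fetal calf serum, 350 nM insulin, 0.5 mM of the cAMP-raising drug isobutylmethylxanthine, 400 nM biotin and the glucocorticoid dexamethasone at 250 nM. Vector cells were taken at 0, 0.5, 1, 2, 4, 8 and 48 h and Flag-ISL1 cells at 0 and 48 h, with 0 h just before the mixture, in 9 groups of 3 arrays that the design text calls biological triplicates. Every group, controls included, thus carries a viral vector, and the sources do not say whether each population was 1 clone or a pool. The 0 h groups were also in 10% serum by the sample records, without the other parts of the mixture. No group after 0 h went without the mixture, so its hormones, any change of serum with it and time in culture cannot be told apart.

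Chemokines are small secreted proteins that draw white blood cells along a gradient by binding G protein-coupled receptors on them. The CC chemokines Ccl2 and Ccl7 attract monocytes through Ccr2, and Ccl5 attracts T cells and monocytes. The CXC chemokines Cxcl1 and Cxcl5 attract neutrophils through Cxcr2, Cxcl10 is an interferon-inducible ligand of Cxcr3, Cxcl12 binds Cxcr4 and the scavenger receptor Ackr3, and Cxcl13 attracts B cells through Cxcr5. Cx3cl1 is made as a membrane-anchored protein that binds Cx3cr1. Preadipocytes and fat tissue are known sources of several of them, Ccl2 foremost, in the recruitment of macrophages to fat.

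Values are log2 intensities, and differences are log2 differences ± the standard error (SE) from limma, with n = 3 arrays a group. A gene was called when its limma p-value, adjusted by Benjamini-Hochberg over all 19938 genes of a comparison, was under 0.05. Array medians lay between 7.89 and 8.07, the residual SD of an array lay between 0.0648 and 0.157, and no pair of arrays held identical values. Fibroblast markers were the strongest of the marker lists: the mean level of 11 of them lay between 13.06 and 13.13 on the vector arrays at 0 h. Nothing in the labels says how far the triplicates were kept apart beyond the word biological, so p-values measure the spread between these arrays. Cells of other types were looked for with 11 measured macrophage and blood cell markers, whose mean level was 7.50 to 7.55 on the vector arrays at 0 h. Lyz2, the lysozyme of myeloid cells, read 12.05 ± 0.0392 there (SD, n = 3), and the means of the other 10 ran from 5.94 (Adgre1) to 8.32 (Cd14). No detection call was used, so none of those markers could be called absent.

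The construct was checked with Isl1 itself. At 0 h Isl1 read 7.37, 7.47 and 7.17 on the vector arrays and 12.64, 12.62 and 12.61 on the ISL1 arrays. In vector cells Isl1 rose in the mixture, by 1.26 ± 0.107 at 2 h (limma, adjusted p 5.42e-10), 0.95 at 4 h and 0.69 at 8 h. At 48 h it read 12.79, 12.76 and 12.72 on the arrays labelled vector, but 7.48, 8.01 and 7.47 on the arrays labelled ISL1. The Isl1 signal at 48 h therefore goes against the labels on all 6 arrays. No array was moved to another group. Values at 48 h below are given for the arrays as labelled. Exchanging the 48 h labels turns the sign of every difference between constructs at that time, and the other chemokine differences at 48 h were computed under both labellings.

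Over the first hours of the mixture the vector cells showed a short rise of Ccl2, Ccl7 and Cxcl1, a slower rise of Cx3cl1 and a fall of Cxcl5. At 0.5 h 3 of the 9 genes were higher than at 0 h by limma and 0 were lower (4 and 0 at an unadjusted p under 0.05), where 0.777% of all genes were higher and 0.502% lower. At 1 h the counts were 4 higher and 0 lower by limma (4 and 1 unadjusted), against 2.78% and 4.29% of all genes. At 2 h they were 4 higher and 1 lower (10.9% and 17.5% of all genes), and at 4 h again 4 and 1 (17.3% and 22.7%). By 8 h 3 were higher and 4 lower (24.2% and 21.9%). Because the 9 genes were chosen with earlier results of these data known, these counts do not describe chemokine genes as a class. Of 27 other chemokine ligands limma called 0 at 0.5 h and 0 at 1 h. At an unadjusted p under 0.05, 1 was higher at 0.5 h, and 1 higher and 1 lower at 1 h. Of the macrophage markers Cd14 and Cd68 were higher at 4 h, by 1.00 ± 0.083 and 1.03 ± 0.0798, Lyz2 was lower (-0.22 ± 0.0868) and the other 8 of 11 were not called. Their part in the chemokine changes was not tested. The share of higher genes among all calls was 39.3% at 1 h and 38.4% at 2 h, and was 51.8% and 48.6% when each array was centred on its median, while the members' counts of calls, 4 and 5, were the same. The median log2 difference of the 9 genes was 0.09, 0.13, 0.32, 0.20 and -0.07 at 0.5, 1, 2, 4 and 8 h, beside 0.01, -0.02, 0.00, 0.03 and 0.07 for all genes tested. The median hides opposed members, as the values of single genes show.

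**Figure D1:**
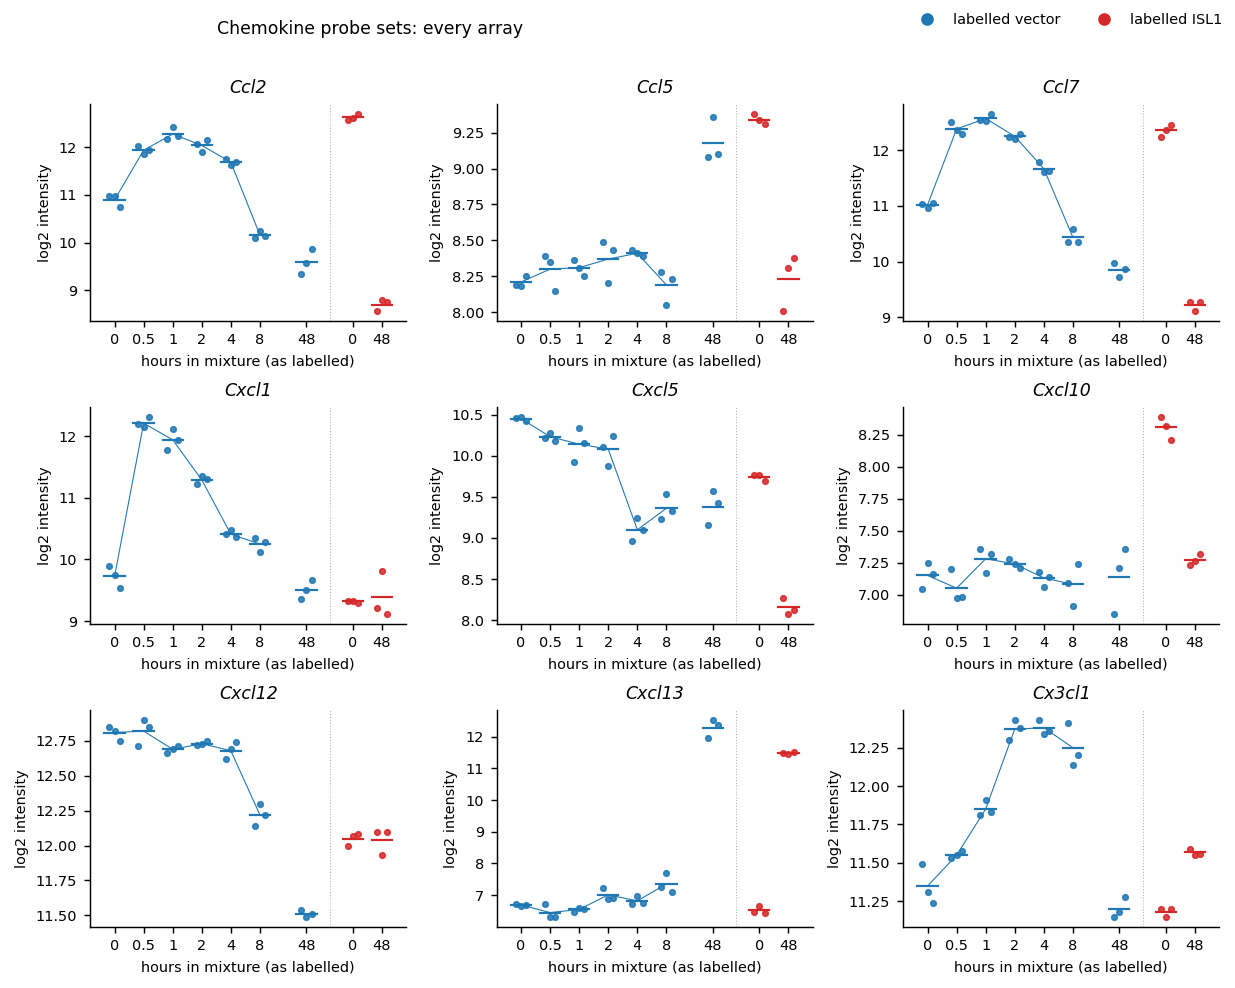
Log2 intensity of each chemokine probe set on every array (points) with the group mean (bar), by hours in the mixture as labelled, where blue marks arrays labelled vector, red arrays labelled ISL1, and the blue line joins vector means from 0 to 8 h (scales differ between panels). Ccl2 and Ccl7 peak at 1 h and Cxcl1 at 0.5 h, Cxcl13 is high on all 6 arrays of 48 h, and Cxcl10 is high only on the 3 ISL1 arrays of 0 h.

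**Figure D2:**
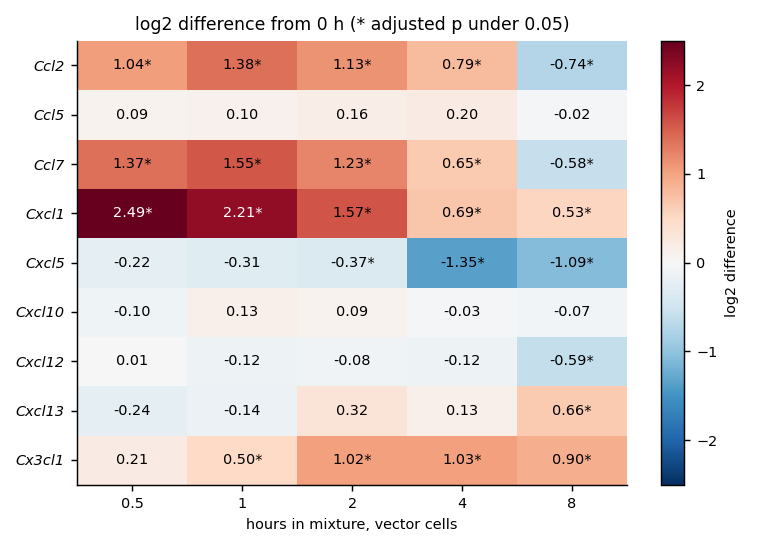
Log2 difference of each chemokine gene from 0 h in vector cells (columns, hours in the mixture), printed in each cell, with an asterisk where the adjusted p of limma was under 0.05. Ccl2, Ccl7 and Cxcl1 are higher from 0.5 to 4 h, Cx3cl1 from 1 to 8 h, and Cxcl5 is lower from 2 to 8 h.

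Cxcl1, a neutrophil attractant first found as an immediate response gene of fibroblasts, had the largest early rise of the 9. It read 9.89, 9.75 and 9.54 at 0 h, and 12.20, 12.14 and 12.31 at 0.5 h. The lowest array of 0.5 h thus lay more than 2 log2 units above the highest of 0 h. The difference was 2.49 ± 0.126 (5.61-fold, adjusted p 1.16e-13). Signal then fell from each time to the next in the group means: it was 11.77, 12.11 and 11.94 at 1 h, 11.23, 11.35 and 11.30 at 2 h, and 10.41, 10.48 and 10.36 at 4 h. No array of 1 h overlapped those of 0.5 h, but that step, -0.27, had an adjusted p of 0.423. The steps from 1 to 2 h (-0.65) and from 2 to 4 h (-0.88) were called. At 8 h the arrays read 10.35, 10.12 and 10.29 and were still 0.53 ± 0.126 above 0 h (adjusted p 0.00108).

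The Cxcl1 promoter is shown because NF-kB, the main inflammatory activator of this gene family, has a consensus match in it. The window is chr5:90890995-90891244 of GRCm38.p6, plus strand, the 250 bases before the RefSeq start of the gene, with the matches in capitals.
Cxcl1: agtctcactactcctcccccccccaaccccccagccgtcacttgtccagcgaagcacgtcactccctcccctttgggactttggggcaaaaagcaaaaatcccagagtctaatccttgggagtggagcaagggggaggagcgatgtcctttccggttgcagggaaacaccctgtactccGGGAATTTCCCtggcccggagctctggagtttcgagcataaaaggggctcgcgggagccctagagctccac
The capitals hold 2 overlapping matches of the NF-kB consensus, from 71 to 61 bases before the start, and such a match was found on either strand in 7.25% of 32851 promoter windows of the same length. A match describes letters only.

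Of the NF-kB feedback genes Nfkbia and Nfkbiz rose at 0.5 h. Nfkbia, which holds NF-kB in the cytoplasm, was higher by 1.12 ± 0.0806 at 0.5 h and by 1.80 at 1 h, and Nfkbiz, a nuclear cofactor, by 2.06 ± 0.101 at 0.5 h. Of 13 measured NF-kB subunits and feedback genes 2 were higher and 0 lower at 0.5 h, 5 and 0 at 1 h, 5 and 4 at 2 h, 4 and 6 at 4 h, and 5 and 5 at 8 h (at an unadjusted p under 0.05, 3 and 0 at 0.5 h and 6 and 1 at 1 h). Their median difference at 1 h was 0.13, against -0.02 for all genes. Il6, a cytokine of the same early class, rose by 2.43 ± 0.176 at 0.5 h and by 4.12 at 1 h. A list of 9 genes that act on cytokine RNA holds decay factors, Elavl1, which stabilises such RNAs, and Dusp1. In it Zfp36, a decay factor that binds AU-rich elements, was higher by 3.45 ± 0.0823 at 0.5 h, and Dusp1, a phosphatase of p38 MAP kinase, by 3.22 ± 0.0737. Of the 9 genes 4 were higher at 0.5 h and 7 at 2 h, with 0 (also unadjusted) and 1 lower by limma.

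Ccl2 and Ccl7, neighbours on chromosome 11, also rose at 0.5 h. Ccl2 read 10.98, 10.98 and 10.75 at 0 h, 12.02, 11.87 and 11.94 at 0.5 h, and 12.18, 12.42 and 12.24 at 1 h. The 3 groups did not overlap. The rise was 1.04 ± 0.0999 at 0.5 h (adjusted p 5.03e-08) and 1.38 ± 0.0999 at 1 h (2.60-fold, adjusted p 7.40e-11). Whether it went on after 0.5 h depends on the setting, since the step of 0.34 had an adjusted p of 0.0618 and passed under median centring (0.0456), quantile normalization (0.0322) and a variance trend (0.0204).

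Ccl7 read 11.03, 10.97 and 11.06 at 0 h, 12.50, 12.36 and 12.29 at 0.5 h, and 12.54, 12.52 and 12.65 at 1 h. It was higher by 1.37 ± 0.0811 at 0.5 h and by 1.55 ± 0.0811 at 1 h (2.93-fold, adjusted p 7.02e-14), and the step between those times, 0.18, was not called (adjusted p 0.379). After 1 h the group means of both genes fell from each time to the next. For Ccl2 the step from 1 to 2 h, -0.24, was not called (adjusted p 0.0938). It passed under quantile normalization (0.0158) and a variance trend (0.048). At 8 h both genes lay below their start. Ccl2 was then 10.09, 10.25 and 10.14, which is -0.74 ± 0.0999 from 0 h (adjusted p 6.25e-07). Ccl7 was 10.35, 10.59 and 10.36, which is -0.58 ± 0.0811 (adjusted p 1.00e-06). Most of that drop fell between 4 and 8 h, with steps of -1.53 for Ccl2 and -1.23 for Ccl7. On the arrays labelled vector at 48 h Ccl2 lay 1.31 below 0 h in vector cells (difference -1.31 ± 0.0999) and Ccl7 -1.17 ± 0.0811; under exchanged labels these were -2.20 and -1.79, so the direction was the same.

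Over the 9 group means Ccl2 and Ccl7 had a Pearson r of 0.987. Each was the gene most like the other among all genes whose group means spanned at least 1 log2 unit, as a description of group means of shared arrays. After Ccl7, the genes most like Ccl2 were Anxa3 (0.965) and Ddhd1 (0.963). For Cxcl1 they were Ccn2 (0.964), Sgk1 (0.958) and Fos (0.952).

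Neighbouring chemokine genes did not all rise. In RefSeq order the stretch from Ccl2 runs Ccl2, Ccl7, Ccl11, Ccl12, Ccl8 and Ccl1. At 1 h Ccl2 and Ccl7 were called and the other 4 were not, with log2 differences of 0.09 ± 0.0655 for Ccl11, 0.01 ± 0.124 for Ccl12, -0.04 ± 0.0819 for Ccl8 and 0.03 ± 0.096 for Ccl1. At 8 h Ccl11, which attracts eosinophils, was lower along with the first pair (-0.60 ± 0.0655). The stretch on chromosome 5 runs Cxcl5, Ppbp, Pf4, Cxcl3, Cxcl15, Cxcl1 and Cxcl2. At 1 h Cxcl1 was the only called gene of these 7, while Cxcl2 and Cxcl3, which also bind Cxcr2, differed from 0 h by 0.19 ± 0.121 and 0.02 ± 0.101. Cxcl1, Cxcl2 and Cxcl3 are similar in sequence, and how far their probes share signal was not tested.

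**Figure D3:**
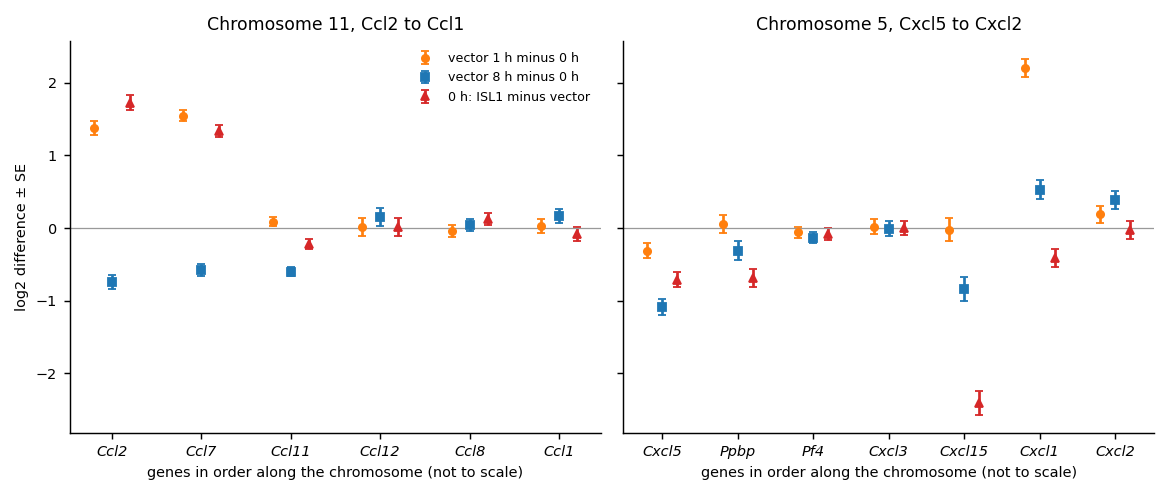
Log2 difference ± SE of the limma fit for neighbouring chemokine genes, in chromosome order and not to scale, at 1 h and at 8 h against 0 h in vector cells and between ISL1 and vector cells at 0 h (3 arrays a group). In the left panel Ccl2 and Ccl7 stand apart from the other 4 genes at 1 h, and in the right panel Cxcl1 does, while Cxcl15 has the largest difference between constructs, -2.41.

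Cxcl5, the other neutrophil attractant of the 9, went the opposite way to Cxcl1. It read 10.46, 10.47 and 10.42 at 0 h, 10.11, 9.88 and 10.24 at 2 h, 8.96, 9.24 and 9.10 at 4 h, and 9.23, 9.53 and 9.33 at 8 h. From 0.5 h on no array reached the 0 h range. The difference from 0 h was -0.22 at 0.5 h (adjusted p 0.794), -0.31 at 1 h (0.0889), -0.37 ± 0.108 at 2 h (0.00907) and -1.35 ± 0.108 at 4 h (2.55-fold lower, adjusted p 7.39e-11). Without array 2 of 2 h the call at 2 h was lost (-0.28, adjusted p 0.0878), and without array 2 of 1 h a call at 1 h was gained (-0.41, 0.024). The step from 2 to 4 h, -0.98, held most of the fall. The genes most like Cxcl5 over the 9 group means were Prrx1 (0.970), Fbxl21 (0.966) and Lncpint (0.957).

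Cx3cl1, the membrane-anchored chemokine, rose more slowly and stayed up. It read 11.49, 11.31 and 11.24 at 0 h, 11.53, 11.55 and 11.58 at 0.5 h, and 11.81, 11.91 and 11.83 at 1 h. At 2 h it was 12.30, 12.43 and 12.38, at 4 h 12.43, 12.34 and 12.36, and at 8 h 12.41, 12.14 and 12.20. Groups from 2 to 8 h overlapped each other and lay above every earlier array. The difference from 0 h was 0.21 at 0.5 h (adjusted p 0.291), 0.50 ± 0.0696 at 1 h (1.02e-05), 1.02 at 2 h, 1.03 at 4 h (2.04-fold, adjusted p 2.98e-12) and 0.90 at 8 h. On the arrays labelled vector at 48 h it was 11.15, 11.18 and 11.28, or -0.15 ± 0.0696 from 0 h (adjusted p 0.112), and under exchanged labels 0.22 (0.0132). Its receptor Cx3cr1 differed from 0 h by 0.31 ± 0.105 at 2 h (adjusted p 0.0296) and 0.37 at 8 h (0.00527). Adam10, a protease that sheds Cx3cl1 from the membrane, was lower at 4 h (-0.37 ± 0.0726) and 8 h (-0.78).

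Cxcl12, a chemokine that stromal cells make at rest, changed late. It read 12.85, 12.82 and 12.75 at 0 h and 12.62, 12.69 and 12.74 at 4 h, and the difference of -0.12 was not called (adjusted p 0.124). Quantile normalization and a variance trend did call it (-0.18 with 0.00355, and -0.12 with 0.0462). At 8 h the arrays read 12.14, 12.30 and 12.22, below every earlier array, with a difference of -0.59 ± 0.0625 (1.50-fold lower, adjusted p 1.14e-08). On the arrays labelled vector at 48 h it was 11.54, 11.49 and 11.51, a difference of -1.30 ± 0.0625 from 0 h (2.45-fold lower, adjusted p 3.24e-15), and under exchanged labels -0.76. Fibroblast markers fell over the same times: 9 of 11 were lower at 8 h and 10 of 11 on the arrays labelled vector at 48 h, with mean levels of 12.42 to 12.50 and 11.86 to 11.94. Their part in the Cxcl12 result was not tested, and in bulk RNA fewer cells of a type and less RNA per cell cannot be told apart.

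Ackr3, the receptor that takes up and degrades Cxcl12, rose before Cxcl12 fell. It was higher by 0.75 ± 0.0889 at 1 h, 1.36 at 2 h, 1.34 at 4 h and 0.69 at 8 h. Of the 22 measured chemokine receptors 0 were called at 0.5 h, 1 at 1 h, 3 at 2 h, 3 at 4 h and 5 at 8 h, and all of these calls were higher (unadjusted, 1, 2, 3, 3 and 6, with 0 lower). Of all genes 0.777%, 2.78%, 10.9%, 17.3% and 24.2% were higher at these times, and 0.502%, 4.29%, 17.5%, 22.7% and 21.9% were lower. The median difference of the receptors at 8 h was 0.13, and that of all genes 0.07. At 8 h the other called receptors were Cx3cr1, Ccr4 (0.30 ± 0.109), Ccr7 (0.36 ± 0.135) and Ccrl2 (0.28 ± 0.103), each a smaller difference than that of Ackr3. Mean levels at 0 h and 8 h were 6.46 and 6.76 for Ccr4, and 6.99 and 7.27 for Ccrl2, below the array medians. They were 7.92 and 8.29 for Cx3cr1 and 8.10 and 8.45 for Ccr7. Signal over background was not tested.

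Ccl5 and Cxcl10 gave no call at any vector time up to 8 h. Ccl5 lay between 8.05 and 8.49 on all 18 arrays of those times, with differences from 0 h between -0.02 and 0.20. The largest, 0.20 ± 0.0927 at 4 h, had an adjusted p of 0.0925 and passed under median centring (0.0491), quantile normalization (0.0256) and a fit of the compared groups alone (0.0177). Cxcl10 lay between 6.91 and 7.36, with differences between -0.10 and 0.13. The 95% interval of its largest difference, at 1 h, ran from -0.07 to 0.34. In the F test over all 7 vector times 8 of the 9 genes were called, where 56.5% of all genes were, and Cxcl10 was not (adjusted p 0.365). Without the 48 h arrays Ccl5 was not called either (0.243), and Cxcl10 had 0.286.

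From each time to the next the calls of the 9 genes were few at first. Between 0.5 and 1 h limma called 1 higher, Cx3cl1 (0.29 ± 0.0696, adjusted p 0.0115), and 0 lower (4 and 2 unadjusted), where 1.84% and 1.77% of all genes were called. Among all calls of that step 51.0% were higher, and 72.1% with median centring. That single call was lost without array 1 of 0.5 h (0.28, adjusted p 0.0537) and without array 2 of 1 h (0.26, 0.0695). Between 1 and 2 h Cx3cl1 and Cxcl13 were higher and Ccl7 and Cxcl1 lower (9.47% and 11.3% of all genes). Between 2 and 4 h limma called 0 higher (0 also unadjusted) and 4 lower, namely Ccl2, Ccl7, Cxcl1 and Cxcl5 (13.7% and 14.2%). Between 4 and 8 h Cxcl13 was higher and Ccl2, Ccl7 and Cxcl12 were lower (13.7% and 10.2%), and the higher share of all calls there was 57.2%, or 44.0% with median centring.

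Cxcl13, the B cell attractant, had the widest range of the 9, 5.84 log2 units between its highest and lowest group means. It read 6.71, 6.67 and 6.69 at 0 h, 7.24, 6.89 and 6.91 at 2 h, and 7.27, 7.69 and 7.09 at 8 h. The 8 h arrays lay above all 0 h arrays, by 0.66 ± 0.135 (1.58-fold, adjusted p 0.000205). The difference of 0.32 at 2 h was not called (adjusted p 0.0824), and the compared groups fitted alone gave 0.0269. The step from 1 to 2 h, 0.47 ± 0.135, was called (0.0131) and was lost without array 1 of 2 h (0.35, 0.108).

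At 48 h Cxcl13 was high whatever the label. The arrays labelled vector read 11.97, 12.53 and 12.38, and the arrays labelled ISL1 11.48, 11.46 and 11.53. All 6 lay more than 3 log2 units above every array of an earlier time. Against 0 h of the same label the differences were 5.60 ± 0.135 (48.6-fold, adjusted p 1.95e-21) for vector and 4.97 ± 0.135 (31.3-fold, 1.70e-20) for ISL1. With exchanged labels they were 4.80 and 5.77. Retnla, a resistin-like secreted protein, was the gene most like it over the 9 group means (r = 0.997), followed by Car5b, a mitochondrial carbonic anhydrase (0.991), and Elmod2 (0.987). These values rest on 7 low group means and 2 high ones.

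The Cxcl13 promoter is shown because C/EBP factors are known to be induced by this mixture and an element of theirs is matched there. The window is chr5:95956689-95956938 of GRCm38.p6, plus strand, from RefSeq, with the match in capitals.
Cxcl13: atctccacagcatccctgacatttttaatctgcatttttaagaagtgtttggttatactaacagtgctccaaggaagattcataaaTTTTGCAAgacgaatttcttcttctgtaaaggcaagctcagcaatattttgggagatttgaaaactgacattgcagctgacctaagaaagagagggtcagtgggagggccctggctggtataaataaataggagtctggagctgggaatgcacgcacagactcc
The C/EBP element searched was TTGCNNAA, on both strands, and it was found from 164 to 157 bases before the start. Of all windows 9.56% hold it. The other elements searched in the 5 windows matched to the 9 genes were the cAMP response element TGACGTCA (1.55% of all windows), the STAT element TTCNNNGAA (7.02%) and the glucocorticoid response element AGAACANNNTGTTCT (0.00913%), with 0 matches, and the windows of Cxcl12 and Cx3cl1 held 0 matches of any element. No window was matched for Ccl2, Ccl5, Ccl7 and Cxcl5.

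Before induction the ISL1 cells held more Ccl2, Ccl5, Ccl7 and Cxcl10 than vector cells and less Cxcl1, Cxcl5 and Cxcl12. That makes 4 higher and 3 lower of 9, where 15.3% of all genes were higher and 10.4% lower. Their median difference was -0.17, and that of all genes -0.01. The 3 CC chemokines of the 9 were all higher, while the CXC genes divided. CC genes outside the 9 went both ways, with Ccl24 higher and Ccl11 lower.

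Ccl2 read 12.58, 12.62 and 12.70 in ISL1 cells against 10.98, 10.98 and 10.75 in vector cells, a difference of 1.73 ± 0.0999 (3.32-fold, adjusted p 4.86e-13). These ISL1 arrays lay above every vector array of the series, the 1 h peak included, where the highest array was 12.42. Ccl7 read 12.23, 12.37 and 12.46 in ISL1 cells, a difference of 1.34 ± 0.0811 (2.53-fold, adjusted p 1.21e-12), which overlaps its vector arrays of 0.5 and 2 h. Ccl5 read 9.38, 9.34 and 9.31 against 8.19, 8.18 and 8.25, a difference of 1.13 ± 0.0927 (2.19-fold, adjusted p 3.43e-10). Ccl5 in uninduced ISL1 cells thus lay above all vector arrays from 0 to 8 h, none of which passed 8.49.

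In the stretch from Ccl2 to Ccl1 on chromosome 11 the higher genes were again the first pair. Ccl11 was lower (-0.22 ± 0.0655, adjusted p 0.0127), and Ccl12, Ccl8 and Ccl1 were not called. In the stretch from Cxcl5 to Cxcl2 on chromosome 5 the called genes were all lower: Cxcl5, Ppbp (-0.69 ± 0.126), Cxcl15 (-2.41 ± 0.162) and Cxcl1. Outside these stretches Ccl5, also on chromosome 11, and Cxcl10, also on chromosome 5, were higher. Of 27 other chemokine ligands 5 were higher and 4 lower, where 15.3% of all genes were higher and 10.4% lower. The higher ones included Ccl24, an eosinophil attractant (0.74 ± 0.0996), and Ccl9 (0.71 ± 0.117). The median difference of the 27 ligands was 0.00. Among these ligands 0 had been called at 0.5 h and at 1 h by limma in vector cells (1 and 2 at an unadjusted p under 0.05), 3 at 2 h and 3 at 4 h, all higher, led by Ccl17, a ligand of Ccr4 (1.31 ± 0.0755 at 4 h). Of the receptors 1 was called at 0 h between constructs, Cxcr5, the receptor of Cxcl13, at -0.30 ± 0.107 (adjusted p 0.0426). Its signal was low, 6.11 to 6.64 on the vector arrays and 5.98 to 6.08 on the ISL1 arrays. Signal over background was not tested.

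Cxcl1 was lower in ISL1 cells, at 9.33, 9.32 and 9.30 against 9.89, 9.75 and 9.54, a difference of -0.41 ± 0.126 (adjusted p 0.0163), lost without vector array 1 (-0.33, 0.101). Cxcl5 read 9.76, 9.77 and 9.69 against 10.46, 10.47 and 10.42, a difference of -0.71 ± 0.108 (1.64-fold lower, adjusted p 9.91e-06). Cxcl12 read 12.00, 12.07 and 12.08 against 12.85, 12.82 and 12.75, a difference of -0.76 ± 0.0625 (1.69-fold lower, adjusted p 4.14e-10). Cxcl13 and Cx3cl1 were not called, at -0.17 ± 0.135 (adjusted p 0.457) and -0.17 ± 0.0696 (0.0854). Quantile normalization gave a call for Cx3cl1 (-0.21, 0.0168), as did a variance trend (-0.17, 0.0366) and the fit without vector array 3 of 0 h (-0.22, 0.034).

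As labelled, Cxcl10 was the gene of the 9 that was called between constructs at 0 h and at no vector time against 0 h. With exchanged 48 h labels Ccl5 was also called at no vector time against 0 h (0.02 at 48 h, adjusted p 0.863). Cxcl10 read 8.39, 8.32 and 8.21 in ISL1 cells at 0 h, and its highest value on any other array was 7.36. The difference was 1.16 ± 0.101 (2.23-fold, adjusted p 1.02e-09). Interferon genes were higher in the same cells: of 16 measured interferon-axis genes 15 were higher and 0 lower, with a median difference of 0.74 against -0.01 for all genes (15 and 0 also unadjusted). Usp18, a protease that limits interferon signalling, was higher by 2.15 ± 0.227, Oasl2 by 1.84 ± 0.219 and Ifit1 by 1.81 ± 0.261, the last pair being antiviral effectors. The genes most like Cxcl10 over the 9 group means were Lypd6 (0.983), Ifi27l2a (0.972) and Mx1 (0.970).

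In vector cells most of the interferon genes fell and Cxcl10 did not. Of the 16 genes 4 were lower at 1 h, 8 at 2 h, 13 at 4 h and 12 at 8 h, while Cxcl10 stayed within 0.13 of its start. Ifit3 was lower by 3.84 at 8 h (difference -3.84 ± 0.200), Ifit2 differed by -2.19 ± 0.153, and Irf1, a transcription factor of the axis, was already at -2.21 ± 0.106 at 2 h. At 4 h 1 gene of the list was higher. Cxcl10 started low, with a mean of 7.15 at 0 h. Among interferon genes that also started low, Mx1 had means of 6.17 at 0 h and 6.06 at 8 h, and Rsad2 6.72 and 6.95. Mx2 had 6.41 and 6.06, and Ifih1 7.47 and 6.64. Whether its low signal left Cxcl10 room to fall was not tested.

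**Figure D4:**
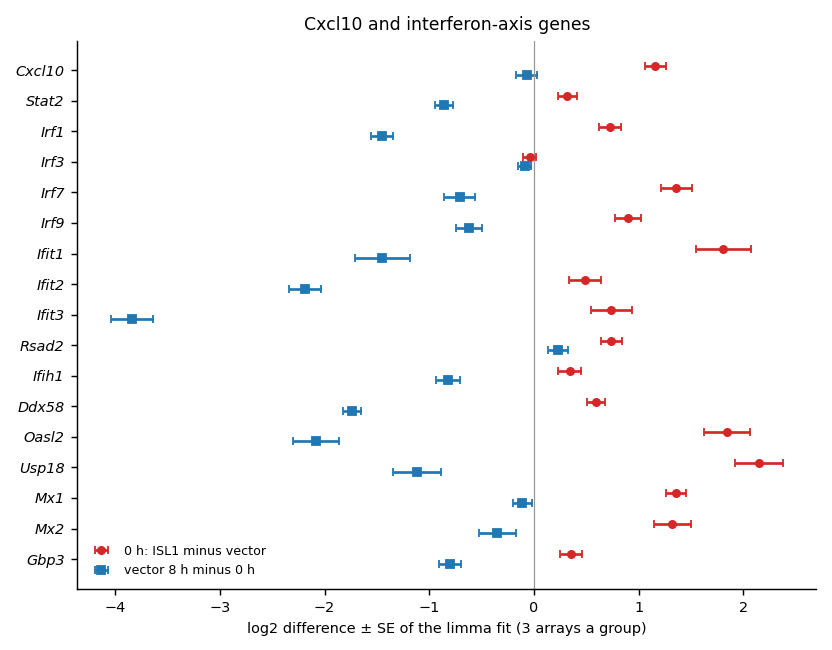
Log2 difference ± SE of the limma fit for Cxcl10 (top) and the 16 measured interferon-axis genes, between ISL1 and vector cells at 0 h (red circles) and between 8 h and 0 h in vector cells (blue squares), with 3 arrays a group. All but Irf3 are higher in ISL1 cells at 0 h, and most lie left of zero at 8 h, where Cxcl10 differs by -0.07.

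The Cxcl10 promoter is shown because it holds an interferon-stimulated response element, a site found in many interferon-inducible genes. The window is chr5:92348890-92349139 of GRCm38.p6, minus strand, from RefSeq, written in the direction of the gene with the matches in capitals.
Cxcl10: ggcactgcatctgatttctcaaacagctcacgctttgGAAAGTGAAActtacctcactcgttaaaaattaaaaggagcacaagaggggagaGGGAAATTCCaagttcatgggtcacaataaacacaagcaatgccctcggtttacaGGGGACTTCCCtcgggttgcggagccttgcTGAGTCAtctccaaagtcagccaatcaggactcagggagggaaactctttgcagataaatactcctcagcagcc
The first run of capitals, from 213 to 204 bases before the start, matches the response element GAAANNGAAA, found on either strand in 2.98% of all windows. The next is an NF-kB consensus match from 159 to 150, the third holds 2 overlapping NF-kB matches from 104 to 94, and the last, from 74 to 68, is an AP-1 element TGANTCA (6.75% of all windows). The Cxcl1 window has the NF-kB matches but neither of the other elements.

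NF-kB genes were also higher in ISL1 cells at 0 h, with 8 of 13 higher and 1 lower and a median difference of 0.25. The largest rise was not that of Nfkbiz or Nfkbia, as it was in the first hour of the mixture. Nfkbie, an inhibitor of Rel proteins, was higher by 1.38 ± 0.0762 and Rel by 0.74 ± 0.116, while Nfkbiz differed by 0.13 ± 0.101 and was not called. Some genes had higher means in both settings. In vector cells at 0 h and 1 h Nfkbie had means of 8.24 and 8.80, and Rel 8.84 and 9.41. Tnfaip3 had means of 7.94 and 8.76 there, and of 8.76 in ISL1 cells at 0 h. Tlr2, a receptor for bacterial lipopeptides that signals to NF-kB, was higher by 1.48 ± 0.103. Among the proteases that cut chemokines, Mmp9 was higher by 1.28 ± 0.0868, and Anpep, an aminopeptidase, was lower (-1.65 ± 0.0872).

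Cell state markers differed between the same groups. All 9 measured adipocyte markers were lower in ISL1 cells at 0 h, with a mean level of 8.42 to 8.47 against 10.49 to 10.61, and Adipoq differed by -4.20 ± 0.113. Of 11 fibroblast markers 8 were lower and 0 higher (10 and 0 unadjusted, 12.36 to 12.40 against 13.06 to 13.13). Macrophage and blood cell markers were 2 lower and 0 higher of 11 (also unadjusted), namely Lyz2 (-4.84 ± 0.0868) and Cd14 (-0.45 ± 0.083), with a mean level of 6.95 to 7.08 against 7.50 to 7.55. Of the 7 endothelial markers 1 was higher, Tek, and of the 7 epithelial markers 0 were called at 0 h by limma (0 also unadjusted). The part of these differences in the chemokine results was not tested. Bmp4, a growth factor that the study's title links to ISL1, was also lower (-3.55 ± 0.104). In vector cells given the mixture Bmp4 was lower than at 0 h too, by -3.55 ± 0.104 at 4 h and -4.07 ± 0.104 at 8 h. Between constructs at 48 h it was not called by limma (0.23 ± 0.104 as labelled, adjusted p 0.11).

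At 48 h the labels and Isl1 disagree, so the direction of each difference depends on which is followed. As labelled, 2 of the 9 genes were higher and 5 lower on the ISL1 arrays, where 14.0% of all genes were higher and 13.8% lower. Exchanging the labels turns every sign and keeps every adjusted p.

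Ccl2 read 9.35, 9.57 and 9.86 on the arrays labelled vector and 8.57, 8.79 and 8.75 on those labelled ISL1, a difference of -0.89 ± 0.0999 as labelled (1.86-fold lower, adjusted p 8.17e-08) and 0.89 with labels exchanged. Ccl7 read 9.97, 9.72 and 9.86 against 9.28, 9.12 and 9.27 (-0.62 ± 0.0811 as labelled, 0.62 exchanged), and Ccl5 read 9.08, 9.36 and 9.10 against 8.01, 8.31 and 8.38 (-0.95 ± 0.0927, or 0.95). So the 3 CC genes were higher on the arrays with the higher Isl1 signal at 48 h, as they were at 0 h. For Ccl5 the arrays labelled vector at 48 h overlapped the ISL1 arrays of 0 h, and those labelled ISL1 overlapped every vector group from 0 to 8 h but that of 4 h.

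Cxcl5 read 9.16, 9.57 and 9.42 on the arrays labelled vector and 8.27, 8.08 and 8.12 on those labelled ISL1, a difference of -1.23 ± 0.108 as labelled (2.34-fold lower, adjusted p 1.20e-09) and 1.23 exchanged. It was therefore higher with the higher Isl1 signal at 48 h but lower with it at 0 h. Cxcl12, at 11.54, 11.49 and 11.51 against 12.10, 11.93 and 12.10, differed by 0.53 ± 0.0625 as labelled and -0.53 exchanged, so that it was lower with the higher Isl1 signal at both times. Cxcl13 differed by -0.80 ± 0.135 (0.80 exchanged) and Cx3cl1 by 0.36 ± 0.0696 (-0.36 exchanged). Cxcl1 and Cxcl10 were not called, at -0.12 ± 0.126 (adjusted p 0.569) and 0.13 ± 0.101 (0.390). Array 2 of those labelled ISL1 read 9.82 for Cxcl1, against 9.22 and 9.12, and without it the difference was -0.34 with an adjusted p of 0.0147.

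**Figure D5:**
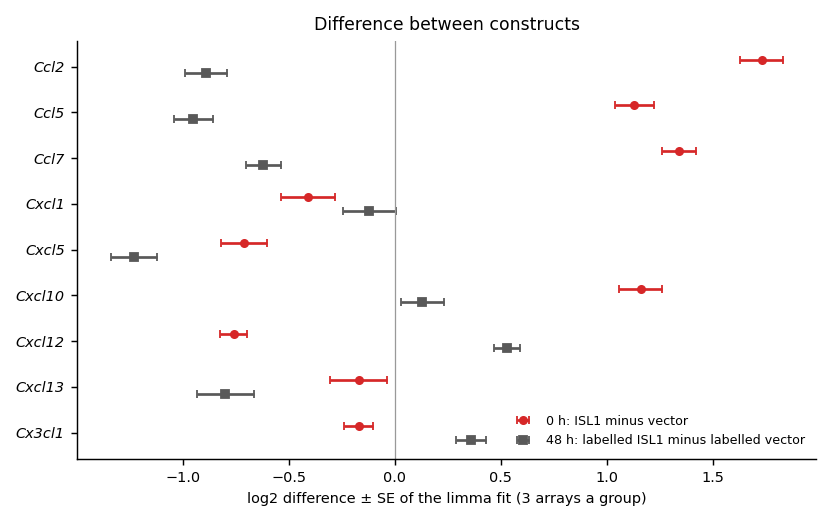
Log2 difference ± SE of the limma fit between ISL1 and vector arrays for each chemokine gene, at 0 h (red circles) and at 48 h as labelled (grey squares), with 3 arrays a group; exchanging the 48 h labels, which Isl1 goes against, mirrors the grey squares about zero. As labelled, Ccl2, Ccl5, Ccl7, Cxcl12 and Cx3cl1 lie on opposite sides of zero at the 2 times, and Cxcl1, Cxcl5, Cxcl10 and Cxcl13 on the same side.

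The marker lists at 48 h also depend on the labels. All 9 adipocyte markers were higher on the arrays labelled ISL1, with a mean level of 11.64 to 11.77 against 10.16 to 10.31. Of the 13 NF-kB genes 0 were higher and 10 lower on the arrays labelled ISL1 by limma (0 and 10 unadjusted), and Il1rn, an antagonist of interleukin 1, differed by -4.50 ± 0.0999. Of the 16 interferon genes 1 was higher and 2 lower there. With exchanged labels each of these differences has the opposite sign. Their part in the chemokine differences was not tested.

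Changes from 0 to 48 h were set side by side for both labellings. Against vector cells at 0 h the arrays labelled vector had 2 of 9 genes higher and 4 lower (18.1% and 18.7% of all genes). With exchanged labels the counts were 2 and 5 (21.3% and 20.0%). Cxcl13 was higher and Ccl2, Ccl7, Cxcl5 and Cxcl12 were lower under both. Ccl5 was higher by 0.97 ± 0.0927 as labelled and by 0.02 (adjusted p 0.863) with labels exchanged. Against 8 h the arrays labelled vector had 2 genes higher and 5 lower (17.8% and 18.9%), with Cx3cl1 back down by -1.05 ± 0.0696 as labelled and -0.68 exchanged, and Cxcl1 by -0.74 ± 0.126 and -0.87.

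Against ISL1 cells at 0 h the arrays labelled ISL1 had 2 genes higher and 5 lower (20.9% and 22.2% of all genes), and with exchanged labels 1 was higher and 5 lower (14.2% and 19.0%). Ccl2 differed by -3.93 ± 0.0999 as labelled (15.2-fold lower, adjusted p 4.26e-21) and -3.04 exchanged (8.21-fold lower). Ccl7 differed by -3.13 ± 0.0811 and -2.51. Cxcl10 returned to 7.23, 7.26 and 7.32 on the arrays labelled ISL1 and read 6.85, 7.21 and 7.36 on those labelled vector, a difference of -1.04 ± 0.101 as labelled and -1.17 exchanged. Of the 16 interferon genes 15 were lower and 0 higher (1 unadjusted) by limma on the arrays labelled ISL1 than in ISL1 cells at 0 h.

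The difference between the construct effects at 48 h and 0 h was tested as such. As labelled it was called for 8 of 9 genes, 2 higher and 6 lower, where 12.7% and 16.3% of all genes were, and Cxcl1 was the exception (0.29, adjusted p 0.270). For Ccl2 it was -2.62 ± 0.141 as labelled and -0.84 ± 0.141 exchanged, and for Ccl7 -1.96 ± 0.115 and -0.71 ± 0.115. For Ccl5 it was -2.08 ± 0.131 as labelled and -0.19 ± 0.131 exchanged (adjusted p 0.386), with an exchanged effect of 0.95 at 48 h beside 1.13 at 0 h. For Cxcl5 it was -0.52 ± 0.153 as labelled and 1.94 ± 0.153 exchanged. Cxcl10 kept its sign, at -1.02 as labelled and -1.29 exchanged.

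Across the 9 groups the order of levels differed by gene. Ccl2 was highest in ISL1 cells at 0 h (12.63), then in vector cells at 1 h (12.28) and 2 h (12.04), and lowest on the arrays labelled ISL1 at 48 h (8.70). Only its groups of 2 h and 0.5 h overlapped as neighbours in that order. Ccl7 was highest at 1 h (12.57), and the groups of 0.5 h, ISL1 at 0 h and 2 h that follow overlapped their neighbours. Cxcl1 ran from 12.21 at 0.5 h to 9.32 in ISL1 cells at 0 h, with no overlap down to 8 h and each of the last groups, from vector 0 h down, overlapping the next. Cxcl5 ran from 10.45 at 0 h to 8.16 on the arrays labelled ISL1 at 48 h. Cxcl10 had its ISL1 group of 0 h alone at the top (8.31), and each of the other 8 groups, from 7.28 to 7.05, overlapped the next. Ccl5 had 2 groups above 9, ISL1 at 0 h (9.34) and labelled vector at 48 h (9.18), which overlapped, and 7 groups from 8.41 to 8.19 that each overlapped the next.

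No other pair of the 9 genes reached the likeness of Ccl2 and Ccl7. Over the 9 group means, which share arrays and processing, Ccl2 had a Pearson r of 0.55 with Cxcl1, 0.69 with Cxcl5, 0.15 with Ccl5 and -0.84 with Cxcl13. Ccl5 and Cxcl10, both raised in ISL1 cells at 0 h, had 0.69. The genes most like Ccl5 were Agap2 (0.990), Gria1 (0.989) and Klhl1 (0.986), those most like Cxcl12 were Ltbp2 (0.975), Clec3b (0.974) and Morrbid (0.971), and those most like Cx3cl1 were Pkdcc (0.980), Snora75 (0.979) and Camsap2 (0.978).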

How the data were processed

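The RNA of 27 samples, 9 groups of 3, was hybridised to 27 Affymetrix arrays of mouse genes. The authors deposited log2 intensities made with RMA, per the submitters' processing notes (software not given in the sources used here). Values of 3.35 to 14.85 settled the log base. Of 28853 probe sets the 21789 with 1 gene symbol in the platform table were used, and 999 genes with several kept the probe set of highest mean. A limma model (version 3.58.1, R 4.3.3) with a mean for each group took in all arrays (two-sided tests, 15 comparisons, Benjamini-Hochberg over 19938 genes within each, threshold 0.05) and was tested on simulated data. Groups came from the labels. The members, the gene lists and the comparisons were chosen with earlier results of these data known. Named are all 9 members, Isl1, Bmp4, up to 6 called genes of each list with the largest change, the 3 genes most like each member, and the neighbours in RefSeq order. Irf3, Ccl1, Ccl8, Ccl11, Ccl12, Cxcl2, Cxcl3, Pf4 and Mx1 stand outside the list rule and were named by position, likeness or figure. So do Mx2, Rsad2, Ifih1, Tnfaip3 and Adgre1, which were named for their levels. Alternatives were other scalings, a variance trend, a minimum mean of 6, all probe sets, the compared groups alone, a replicate block (over all arrays and, chosen after seeing the data, within pairs of groups), each array left out and exchanged 48 h labels. Promoter windows are from RefSeq's GRCm38.p6, with 5 of 9 members matched; the labels name no build, so no gene coordinates were taken from it. The number of arrays limits the precision. Detection calls, scan batches and list genes without a probe set of 1 symbol were not analysed here.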

Additional observations from a re-analysis of the deposited data

Results flagged for a closer look

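The effect of the construct differed between 48 h and 0 h for 8 chemokine genes, by the interaction test of the limma fit with Benjamini-Hochberg adjustment over all genes. Values are the log2 difference between arrays labelled ISL1 and vector at 48 h minus that at 0 h, with 3 arrays a group, and the Isl1 signal at 48 h goes against the labels. The difference was -2.62 for Ccl2 (adjusted p 6.29e-14), -2.08 for Ccl5 (1.58e-12), -1.96 for Ccl7 (3.40e-13) and -1.02 for Cxcl10 (2.53e-06). It was -0.64 for Cxcl13 (0.0123), -0.52 for Cxcl5 (0.0111), 1.29 for Cxcl12 (8.64e-12) and 0.53 for Cx3cl1 (0.000127). With exchanged 48 h labels it passed the test for Ccl2 (-0.84), Ccl7 (-0.71), Cxcl10 (-1.29), Cxcl5 (1.94), Cxcl13 (0.97) and Cxcl1 (0.53), and not for Ccl5 (-0.19), Cxcl12 (0.22) or Cx3cl1 (-0.20).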

How the results depend on the processing

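Of 238 recomputed counts of called members 232 were within 1.5 times the reported count. The exceptions all concern 1 h against 0.5 h, where 1 member was called: 2 were called under median centring, quantile normalization and a variance trend, 0 with only the groups compared, and 0 to 1 when each array was left out in turn. Of 1872 recomputed member differences 1822 kept a called direction or were called in neither fit (there a sign could differ), 25 gained a call, 13 lost one and 12 that were called in at least one fit turned, all 12 under exchanged 48 h labels. Those were Cx3cl1 (0.22) at 48 h against 0 h in vector cells, Cxcl5 (-1.21) at 48 h against 8 h, Ccl2 (0.89), Ccl5 (0.95), Ccl7 (0.62), Cxcl5 (1.23), Cxcl12 (-0.53), Cxcl13 (0.80) and Cx3cl1 (-0.36) between constructs at 48 h, and Cxcl5 (1.94), Cxcl13 (0.97) and Cx3cl1 (-0.20) in the difference of construct effects. For the 7 between constructs at 48 h the exchange turns the sign whatever the values. The other 5 turned because the 48 h groups differ in level, and the exchange was the only change in that fit. No scaling moved the median of all genes by over 0.1 in any comparison. In 4 of 36 pairs of groups all 3 same-numbered correlations were above 0.1 (range over all pairs -0.63 to 0.62), so the numbers gave no pairing common to all groups. With the replicate block over all arrays the counts of called members were the same in all 16 results, 7 for ISL1 against vector at 0 h for instance. The compared groups among the 4 were 0.5 h with 1 h (0.31 to 0.59) and both 48 h groups (0.22 to 0.55). A block within those 6 arrays, chosen after seeing the data, changed no member's call: 1 was called at 1 h against 0.5 h (Cx3cl1, adjusted p 0.05 after rounding) and 7 between constructs at 48 h. Signal over background was not tested, which limits the low values of Cxcl10 and Cxcl13 and those of list genes such as Cxcr5, Ccr4 and Ccrl2.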
